A study of Mus musculus with 12 samples.

Results

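The genes described here are 9 markers of mural cells, the contractile and supporting cells that wrap blood vessels: Rgs5, Vtn, Pdgfrb, Acta2, Tagln, Myl9, Abcc9, Cspg4 and Anpep. They were chosen by symbol as markers, with earlier results of these data known. All 9 were found among 31091 genes with FPKM values (fragments scaled to gene length and library depth) for postnatal day 3 (P3). The libraries came from granule cell progenitors of the mouse cerebellum, in 3 control samples with the genotype WT and 3 samples with the genotype Znhit3 conditional knockout (cKO), which the study compared to ask how loss of Znhit3 leads to atrophy. The 6 samples of postnatal day 6 were not analysed here. The sources used here do not name the driver of the deletion, the strain, the sex or any pooling of animals.

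Mural cells comprise pericytes, which sit on capillaries inside the basement membrane, and smooth muscle cells, which ring arterioles and arteries. Endothelial cells recruit them with the ligand PDGF-B, which binds the receptor encoded by Pdgfrb on the mural cell. In the brain, pericytes support the blood-brain barrier, whereas smooth muscle cells carry actin, myosin light chains and transgelin in quantity and set vessel calibre. The contractile genes are known targets of serum response factor (SRF) and its partner myocardin, which act through a DNA element called the CArG box.

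The libraries held between 29119803 and 52961445 counted reads. Znhit3 measured between 8.58 and 9.15 FPKM in the controls and between 4.01 and 4.57 FPKM in cKO, so 47.8% of its mean level remained. The samples are bulk RNA, in which more cells of a type and more RNA per cell cannot be told apart. The granule progenitor gene Atoh1 was present in all libraries, and the 13 granule progenitor markers summed to between 1298 and 1379 FPKM in controls and between 1086 and 1142 FPKM in cKO, against 82.8 to 84.0 and 114 to 120.3 FPKM for the 9 mural genes. Xist, the RNA of the inactive X chromosome in females, lay between 50.2 and 56.4 FPKM in controls and between 23.7 and 24.6 FPKM in cKO. Ddx3y, on the Y chromosome, lay between 4.92 and 5.64 FPKM in controls and between 10.55 and 13.8 FPKM in cKO. Both sex-linked RNAs were present in every library, as in RNA pooled from females and males. Both moved with genotype, so the balance of the sexes differed between the groups, and its part in the results was not tested. Whether the libraries of a group came from separate pools of animals is not stated. The labels do not say that replicates came from separate animals, so the p-values measure only the spread between these libraries.

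Promoter sequence, taken from RefSeq with the build GRCm38.p6, was matched for 7 members. The stretches printed are the 250 bases before the annotated transcript start of Rgs5, the member with the largest difference on the log2(FPKM + 1) scale, and of Acta2 and Myl9, 2 contractile members of which the first was called higher and the second was not. All are read 5′ to 3′ along the gene's strand, and capitals mark CArG boxes. Rgs5 lies at chr1:169655251-169655500 on the plus strand, Acta2 at chr19:34255374-34255623 on the minus strand and Myl9 at chr2:156775214-156775463 on the plus strand.
Rgs5: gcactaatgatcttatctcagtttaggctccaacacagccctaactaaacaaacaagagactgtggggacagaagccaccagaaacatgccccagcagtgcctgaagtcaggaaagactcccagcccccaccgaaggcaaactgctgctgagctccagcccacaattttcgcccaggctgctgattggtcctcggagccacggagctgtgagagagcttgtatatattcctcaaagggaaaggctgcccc
Acta2: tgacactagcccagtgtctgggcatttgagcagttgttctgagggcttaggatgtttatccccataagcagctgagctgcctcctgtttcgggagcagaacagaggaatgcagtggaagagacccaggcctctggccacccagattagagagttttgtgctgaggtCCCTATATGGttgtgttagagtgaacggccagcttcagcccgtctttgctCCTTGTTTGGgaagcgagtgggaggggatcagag
Myl9: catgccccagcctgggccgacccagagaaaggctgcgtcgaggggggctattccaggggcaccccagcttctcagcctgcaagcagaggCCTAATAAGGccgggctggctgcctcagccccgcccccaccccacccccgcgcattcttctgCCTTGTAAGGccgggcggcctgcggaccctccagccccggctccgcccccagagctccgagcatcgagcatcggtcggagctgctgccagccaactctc

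The CArG box is palindromic, so 1 search covers both strands. In its strict form, with only A or T in its core, it was found in Myl9 with its first base 161 bases before the start, and in 1.47% of 32851 promoter stretches of the same length. With 1 other letter in the core it was found in Acta2 at 84 and 34 bases before the start, and in Myl9 at 99 bases, and in 7.24% of all promoter stretches. None of the matches overlapped. The Rgs5 stretch held neither form, and nor did those of Vtn, Abcc9, Cspg4 and Anpep. On either strand, TATAAA occurred in Vtn alone among the 7 (12.4% of all stretches), CATTCC in Vtn, Acta2 and Abcc9 (12.6%), and GGGCGG in Myl9, Abcc9, Cspg4 and Anpep (32.7%). A match describes the letters in this window and not a site in use.

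Of the 9 mural genes, 6 rose in the Znhit3 cKO libraries (Rgs5, Vtn, Pdgfrb, Acta2, Abcc9 and Cspg4) and none fell, 2 did not pass the test (Anpep and Myl9), and Tagln was too low to be tested. A difference is the cKO mean less the control mean of log2(FPKM + 1), a scale that compresses changes in weakly expressed genes. limma tested the 13538 genes whose mean reached 1 FPKM, and those with a p under 0.05 after Benjamini-Hochberg adjustment were called. Over all tested genes 13.4% were called higher and 5.74% lower. The median difference was 0.44 over the 8 tested members and 0.03 over all tested genes. Of the called genes 70.0% were higher, a share that was 34.1% after upper quartile scaling, 56.8% after quantile normalization and 81.7% after TPM scaling. The 6 calls held under all 3, except that of Cspg4 under quantile normalization.

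**Figure D1:**
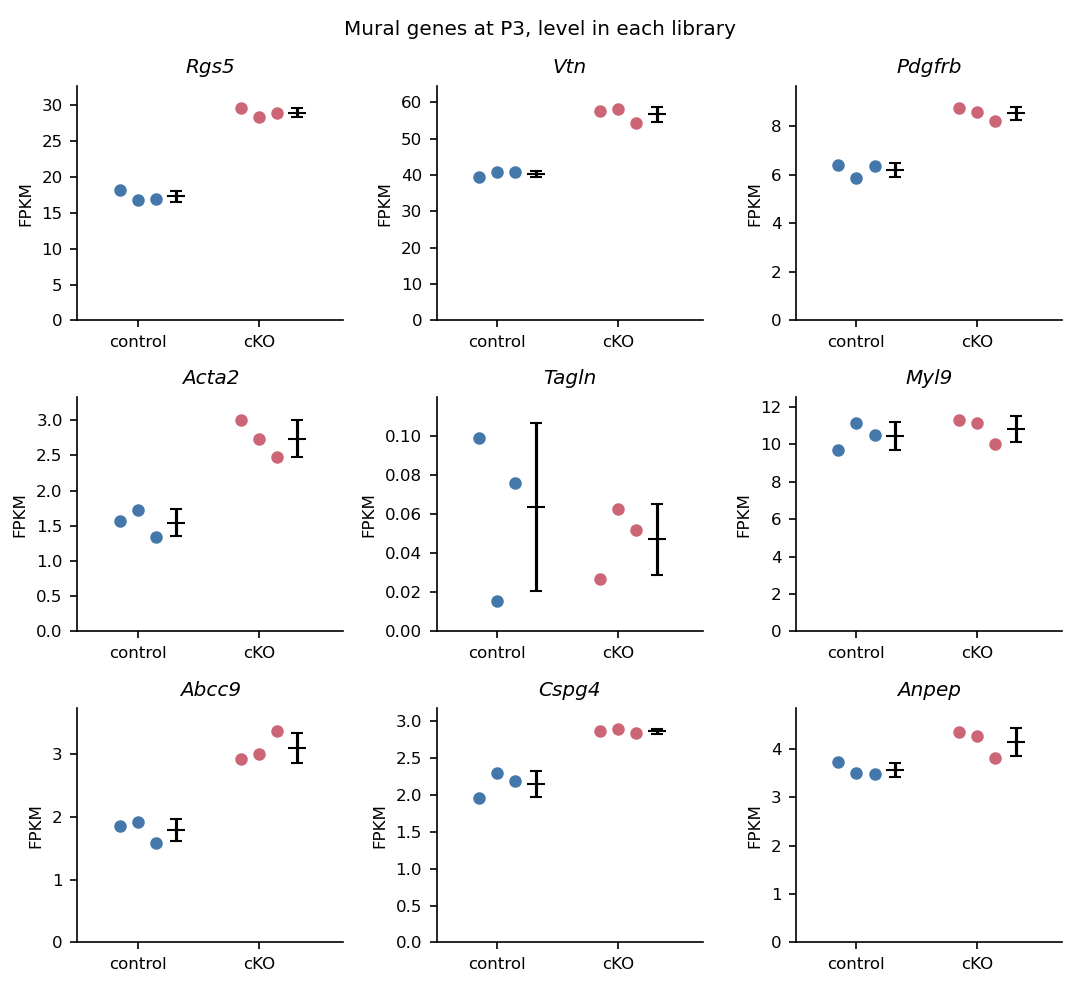
FPKM of the 9 mural genes (one panel each, vertical axes starting at 0) in 3 control and 3 cKO libraries; points are libraries in the order of their replicate number, and black bars the mean and SD. The cKO points lie above the control points in 7 panels, overlap them for Myl9 and Tagln, and Tagln stays under 0.1 FPKM throughout. Over all tested genes, 27.3% had all cKO values above all control values.

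Rgs5 (ENSMUSG00000026678, chromosome 1, 169483070 to 169523382, plus strand, in the positions of the deposited table) encodes a regulator of G protein signalling that is a classical marker of brain pericytes. It measured 18.1, 16.8 and 16.95 FPKM in the controls and 29.6, 28.4 and 28.9 FPKM in cKO. All cKO libraries were far above all controls, and the spread within each group was small beside the gap. The mean rose from 17.3 ± 0.74 to 28.95 ± 0.60 FPKM (SD, n = 3), which is 1.67-fold, with a log2 difference of 0.71 ± 0.05 (SE) and an adjusted limma p of 0.00024. Only 0.451% of all tested genes had a difference as high as that of Rgs5 or higher.

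Pdgfrb (ENSMUSG00000024620, chromosome 18, 61178222 to 61218133, plus strand) encodes PDGF receptor beta, which mural cells need to be recruited to vessels and which fibroblasts also carry. Its level was 6.38, 5.86 and 6.34 FPKM in the controls and 8.75, 8.58 and 8.22 FPKM in cKO, with no overlap. The mean rose 1.38-fold, and the log2 difference was 0.40 ± 0.05 (SE; adjusted limma p of 0.0022). These values rest on between 1036 and 1893 reads per library.

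Abcc9 (ENSMUSG00000030249, chromosome 6, 142533588 to 142648041, minus strand) encodes SUR2, the regulatory subunit of the ATP-sensitive potassium channel of mural cells. It was low but measured in every library, at 1.86, 1.92 and 1.59 FPKM in the controls and 2.92, 3.00 and 3.37 FPKM in cKO, from between 520 and 1013 reads. The groups were again apart. The mean rose 1.73-fold, from 1.79 ± 0.18 to 3.10 ± 0.24 FPKM (SD, n = 3), and the adjusted limma p was 0.0032. An antisense long non-coding RNA, 5330439B14Rik, overlaps 11868 bases of Abcc9 but measured 0.0148 and 0.00638 FPKM in the 2 groups. Kcnj8, which encodes the pore subunit that pairs with SUR2 in mural cells, rose as well, from 2.63, 2.66 and 3.02 FPKM to 3.97, 4.04 and 4.39 FPKM (1.49-fold, adjusted limma p of 0.0041). The subunits of the neuronal and pancreatic form of this channel did not pass the test: Kcnj11 had an adjusted limma p of 0.81 and Abcc8 of 0.15, although Abcc8 was called lower after quantile normalization (0.045).

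Vtn (ENSMUSG00000017344, chromosome 11, 78389917 to 78393150, plus strand) encodes vitronectin, an adhesion protein of plasma and matrix that brain pericytes secrete. It was the most abundant member, at 39.4, 40.8 and 40.8 FPKM in the controls and 57.5, 58.3 and 54.4 FPKM in cKO. The lowest cKO library exceeded the highest control by a wide margin compared with the spread within groups. The mean rose from 40.3 ± 0.80 to 56.75 ± 2.0 FPKM (SD, n = 3), 1.41-fold, with an adjusted limma p of 0.00072. Vitronectin binds integrins that contain the alpha-v subunit and links to the plasminogen activator system. Of 6 tested genes for these receptors and partners 2 rose, namely Itgb8 (4.23 to 6.06 FPKM) and Itgb1 (71.0 to 82.5 FPKM), and none fell. The call of Itgb1 did not hold after upper quartile scaling (adjusted limma p of 0.099).

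Cspg4 and Anpep are surface markers that pericytes share with other cells. Cspg4 (ENSMUSG00000032911, chromosome 9, 56772317 to 56807154, plus strand) encodes the proteoglycan NG2, which oligodendrocyte precursors also carry. It measured 1.96, 2.30 and 2.18 FPKM in the controls and 2.86, 2.89 and 2.83 FPKM in cKO. The cKO libraries were nearly equal to each other and all above the controls. The mean rose 1.33-fold with an adjusted limma p of 0.019, and this call was the least stable of the 6. The adjusted p was 0.052 without control replicate 3, 0.070 without cKO replicate 2, 0.072 after quantile normalization and 0.067 with no filter on low values. Beside this, 8 of 12 oligodendrocyte lineage markers rose and none fell, where 13.4% and 5.74% of all tested genes did. Pdgfra, the gene on that list that marks oligodendrocyte precursors, averaged 23.9 FPKM in the controls and 21.8 FPKM in cKO. Its adjusted limma p was 0.062, and 0.011 after upper quartile scaling. The part of these markers in the rise of Cspg4 was not tested.

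Anpep (ENSMUSG00000039062, chromosome 7, 79471551 to 79510807, minus strand) encodes the membrane peptidase CD13, found on pericytes and on some myeloid cells and fibroblasts. It measured 3.74, 3.50 and 3.48 FPKM in the controls and 4.35, 4.28 and 3.81 FPKM in cKO. The lowest cKO library was just above the highest control, and 27.3% of all tested genes had all cKO values above all control values. The mean ratio was 1.16 and the difference of 0.17 had a 95% interval from 0.03 to 0.31, with an adjusted limma p of 0.091, so Anpep was not called. With array weights the adjusted p was 0.036. None of 3 other tested membrane peptidase genes passed the test. The most abundant of them, Lnpep, averaged 3.70 and 4.36 FPKM with an adjusted limma p of 0.086.

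Of the 3 contractile genes of the set, Acta2 rose, Myl9 did not pass and Tagln was not tested. Acta2 (ENSMUSG00000035783, chromosome 19, 34218490 to 34232990, minus strand) encodes smooth muscle alpha-actin, the main actin of smooth muscle cells and of some pericytes near arterioles. It was low, at 1.57, 1.72 and 1.34 FPKM in the controls and 3.00, 2.74 and 2.47 FPKM in cKO, from between 122 and 247 reads per library. All cKO values were above all control values. The mean rose from 1.54 ± 0.19 to 2.74 ± 0.26 FPKM (SD, n = 3), which at 1.77-fold was the highest ratio among the 8 tested members, and the adjusted limma p was 0.0050. Acta2 has close paralogs, and the sources used here do not say how reads shared between actin genes were assigned. Its cytoplasmic paralogs Actb and Actg1, far more abundant, were not called higher, with differences of -0.10 and -0.19. Another paralog, Actc1, averaged 1.03 and 1.71 FPKM, with all cKO values above all control values. Its adjusted limma p was 0.057, and 0.043 after TPM scaling. The paralogs Acta1 and Actg2 were below 1 FPKM and were not tested.

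Myl9 (ENSMUSG00000067818, chromosome 2, 156617340 to 156623578, plus strand) encodes a regulatory myosin light chain of smooth muscle that other cells express too. It measured 9.68, 11.1 and 10.5 FPKM in the controls and 11.3, 11.1 and 10.0 FPKM in cKO. The groups overlapped. The difference of 0.05 had a 95% interval from -0.10 to 0.20 and an adjusted limma p of 0.65, and 46.8% of all tested genes had a difference as high or higher. Myl9 also has close paralogs, of which Myl12a measured between 10.2 and 11.2 FPKM in the controls and between 9.90 and 10.5 FPKM in cKO.

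Tagln (ENSMUSG00000032085, chromosome 9, 45840917 to 45847356, minus strand) encodes transgelin or SM22-alpha, an actin-binding protein that is among the most abundant products of arterial smooth muscle. It was nearly absent, with 8, 1 and 8 reads in the controls and 2, 5 and 3 reads in cKO, or between 0.0156 and 0.0988 FPKM. A count of 3 reads, the floor used here, corresponds to between 0.028 and 0.052 FPKM for a gene of this length and covers counting error only. A difference was not detectable at this depth. Reads of the overlapping genes Pcsk7 and Gm48529 on the other strand cannot be told apart from those of Tagln where the use of strand in counting is not given.

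The low level of Tagln was shared by other genes that define arterial smooth muscle. Cnn1, which encodes calponin, had 19 reads over the controls and 12 over cKO. Pln, which encodes phospholamban, had 20 and 11 reads. Myh11, the smooth muscle myosin heavy chain gene, had 34, 18 and 40 reads in the controls and 75, 68 and 69 reads in cKO, a mean of 0.0942 against 0.266 FPKM. Of 17 other contractile genes fixed as a list, 10 were below a mean of 1 FPKM. The remaining 7 were tested and none passed under any of the 4 scalings, with differences between -0.19 for Ppp1r14a and 0.14 for Tpm2 and a median of -0.03. The most abundant, Tpm1, which encodes a tropomyosin made by many cell types, averaged 17.0 and 16.6 FPKM with an adjusted limma p of 0.58. With no filter on low values 2 of the 10 low genes were called higher: Des, the desmin gene (0.347 to 0.740 FPKM, adjusted limma p of 0.036), and Myh11 (adjusted limma p of 0.046). In that fit 2.85% of all genes were called higher.

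The plot of differences sets the members beside the other mural genes. Of 22 other pericyte genes 19 were tested, of which 10 rose, none fell and 9 did not pass. The list median was 0.31, and 7 of the 10 calls were also made after quantile normalization and 8 after upper quartile scaling. Foxf2, which encodes a forkhead factor required for brain pericyte development, measured 4.07, 4.10 and 4.83 FPKM in the controls and 9.07, 8.18 and 7.31 FPKM in cKO (1.89-fold, adjusted limma p of 0.0014). Notch3, the Notch receptor of mural cells, rose from 6.74, 6.72 and 7.22 to 9.31, 10.04 and 10.09 FPKM (adjusted limma p of 0.0016). For both genes every cKO library was above every control. From the same list Higd1b, Gja4, Mcam, Rgs4, Atp13a5, Heyl and Ndufa4l2 also rose, with ratios between 1.30 and 1.96. Whether they came from mural cells alone was not tested. The calls of Ndufa4l2 and Atp13a5 did not hold after upper quartile scaling, nor those 2 and that of Heyl after quantile normalization. Among the genes that did not pass were Cd248 (ratio of 1.12), Ifitm1 (0.898) and Slc6a20a (0.956).

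**Figure D2:**
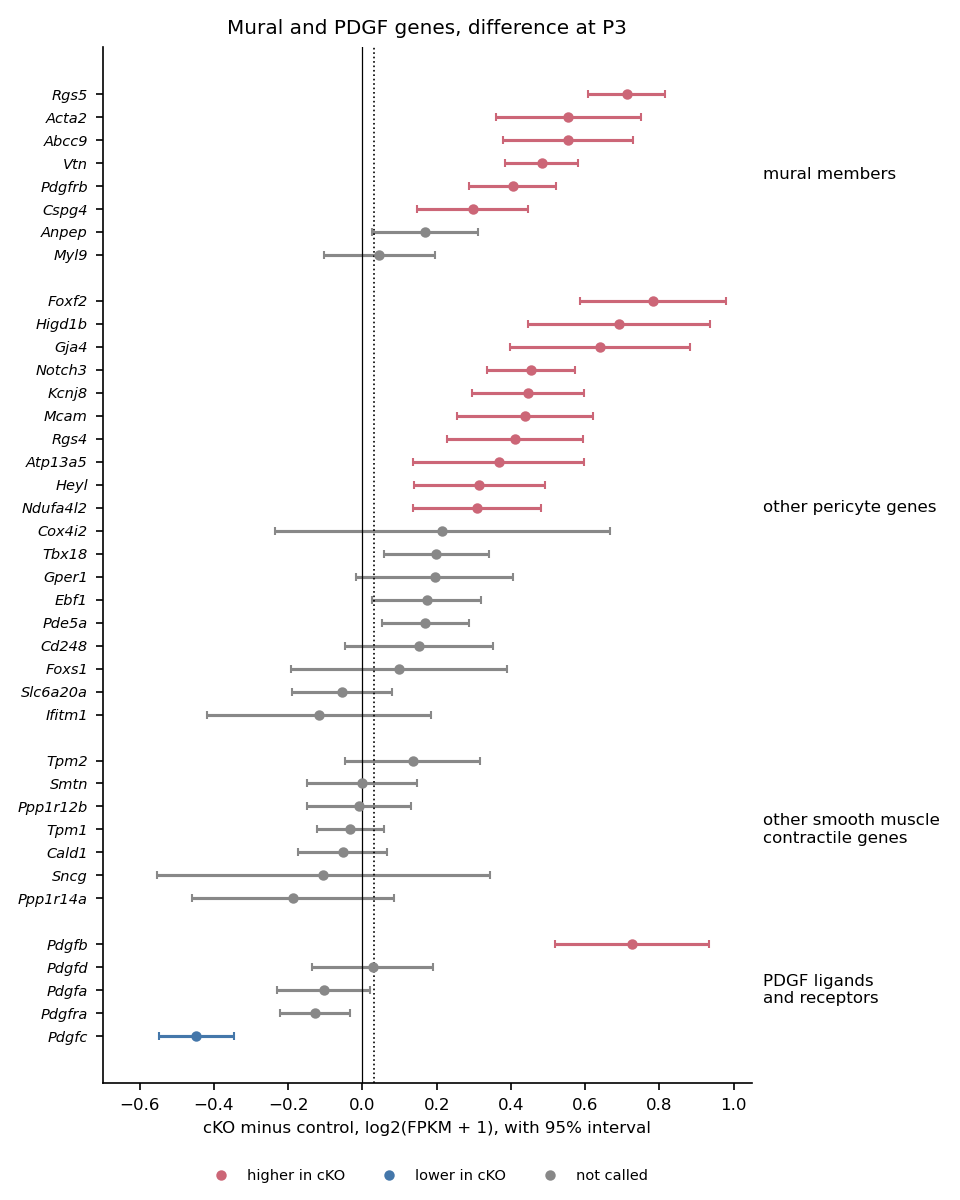
Difference between cKO and control on the log2(FPKM + 1) scale for each tested gene of 4 lists, with 95% intervals from limma; colour gives the call and the dotted line the median of all tested genes (0.03). Members run from 0.71 for Rgs5 to 0.05 for Myl9, contractile genes lie around 0, and Pdgfb and Pdgfc are called in opposite directions.

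Among the signals that reach mural cells, the PDGF family was split. Pdgfb, which encodes the ligand of PDGF receptor beta that endothelial cells release, measured 2.96, 4.09 and 3.44 FPKM in the controls and 6.70, 6.38 and 6.14 FPKM in cKO. All cKO values were well above the controls, a 1.83-fold rise, and the log2 difference was 0.73 ± 0.09 (SE; adjusted limma p of 0.0021). Pdgfc, which encodes a ligand that acts mainly on PDGF receptor alpha, fell from 13.6, 12.9 and 13.5 FPKM to 9.72, 9.53 and 9.27 FPKM (adjusted limma p of 0.0010). Pdgfra, the paralogous receptor gene of oligodendrocyte precursors and fibroblasts, averaged 23.9 and 21.8 FPKM with an adjusted limma p of 0.062, and 0.011 after upper quartile scaling. Pdgfa and Pdgfd did not pass (adjusted limma p of 0.21 and 0.81). Pdgfb and Pdgfrb were thus both called higher, and the other tested PDGF ligand and receptor genes were not.

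Of 24 tested genes for other signals between endothelial and mural cells, 15 rose, none fell and 9 did not pass, with a median of 0.36. The smallest p-values were those of Tie1, an endothelial receptor (9.11 to 17.1 FPKM), Jag1, a Notch ligand (3.04 to 5.05 FPKM), and Angpt1, which encodes angiopoietin-1, a ligand that mural cells make for the endothelial receptor Tek (15.6, 13.6 and 14.4 to 23.9, 22.5 and 23.1 FPKM). Angpt2, its vessel-destabilising counterpart, averaged 2.95 and 2.44 FPKM with an adjusted limma p of 0.064. After upper quartile scaling and after quantile normalization 13 genes of this list were higher and 1 lower. Over all 13538 tested genes 1029 were higher and 1990 lower after upper quartile scaling, and 1083 and 823 after quantile normalization. Tek, Tie1 and Eng are also among the endothelial markers, so the lists are not independent.

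Markers of other cell types moved with genotype in the same libraries. Of 20 endothelial markers 18 rose and 1, the transporter gene Slco1a4, fell, with a median of 0.61, and their summed level ran from 185 to 200.2 FPKM in the controls and from 317 to 330.5 FPKM in cKO. Kdr, the VEGF receptor 2 gene, averaged 8.92 and 14.9 FPKM, and Egfl7 6.89 and 12.2 FPKM. Of 20 fibroblast and meningeal markers 4 rose and 3 fell, with a median of -0.02 and summed levels of 476 to 506 and 407 to 433 FPKM. Col1a1 and Col1a2, which encode type I collagen, were among the rises (12.8 to 17.2 and 14.9 to 18.2 FPKM), and Ptgds, abundant in meninges, among the falls (252.5 to 186 FPKM). After upper quartile scaling 7 of these 20 genes were lower. Over all 13538 tested genes 1990 were lower after that scaling, against 777 without it.

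Microglia and macrophage markers rose in 8 of 13 cases with none lower, GABAergic interneuron markers in 9 of 10 with 1 lower, and astroglia markers in 4 of 11. Choroid plexus markers fell in 6 of 8 cases with 1 higher, and granule progenitor markers in 4 of 13 with none higher. The astroglia count of 4 was 3 after upper quartile scaling, 6 after quantile normalization and 7 after TPM scaling. In the same order of scalings, granule progenitor markers were lower in 7, 2 and 3 cases and higher in 0, 1 and 1. Over all 13538 tested genes, 1990, 823 and 550 were lower under these scalings, and 1029, 1083 and 2450 higher. Erythroid markers rose in 4 of 5 tested cases (median 0.40, summed levels of 1211 to 1476 against 1656 to 1887 FPKM). Purkinje markers rose in 3 of 4 tested cases, and no tested gene of either list was lower. The other 4 of the 8 Purkinje markers, Pcp2, Pcp4, Foxp2 and Skor2, had a mean below 1 FPKM and were not tested. Purkinje markers were higher in 1 case after upper quartile scaling and after quantile normalization. Differentiating granule markers fell in 6 of 9 cases with none higher and a median of -0.31. The summed levels ran from 217 to 220.5 against 259 to 301 FPKM for microglia and macrophages, from 109.9 to 122 against 153 to 175 FPKM for interneurons, and from 1305 to 1347 against 1390 to 1477 FPKM for astroglia. No marker of these lists was at 0 in all libraries. The part of these shifts in the rise of the mural genes was not tested.

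**Figure D3:**
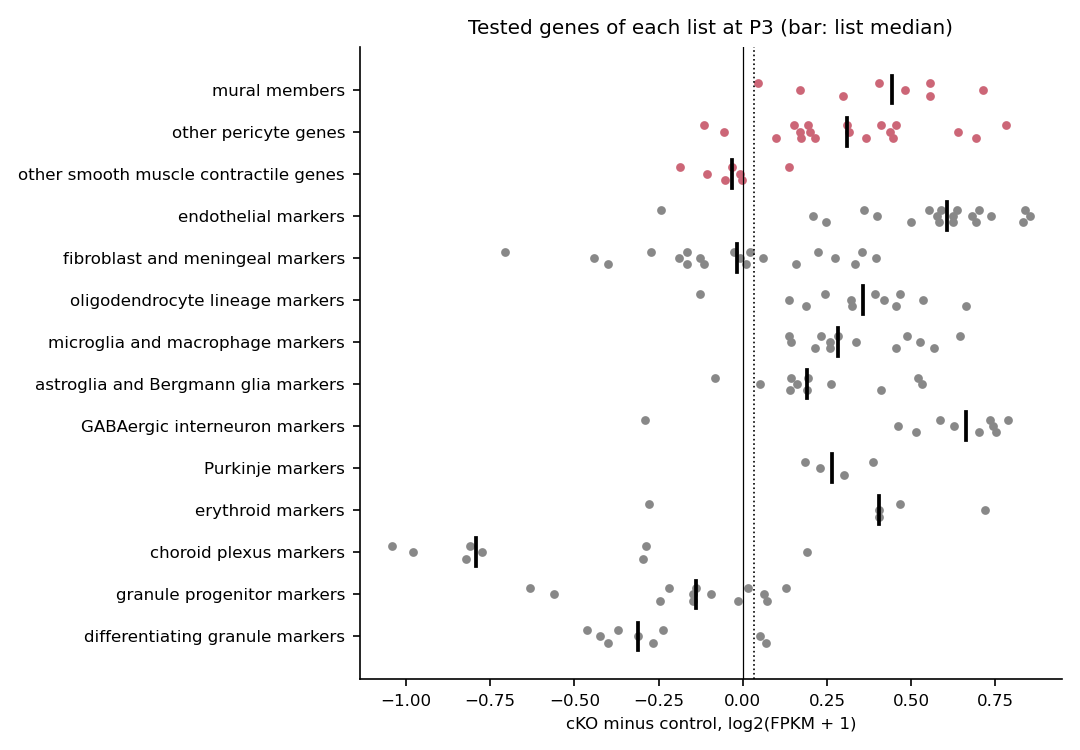
Differences between cKO and control on the log2(FPKM + 1) scale for the tested genes of 14 lists; each point is a gene, black bars are list medians and the dotted line the median of all tested genes (0.03). The members (median 0.44) and other pericyte genes (0.31) lie below the endothelial markers (0.61) and above the other contractile genes (-0.03) and the fibroblast markers (-0.02).

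Set against these lists, the summed mural genes were lower relative to endothelial markers and higher relative to fibroblast markers. The summed FPKM of the 9 members over that of the endothelial markers was 0.447, 0.419 and 0.426 in the controls and 0.380, 0.361 and 0.353 in cKO, without overlap. Over the fibroblast markers it was 0.174, 0.172 and 0.165 in the controls and 0.278, 0.289 and 0.280 in cKO. Vtn and Rgs5 made up between 68.5% and 69.5% of the members' sum in the controls and between 72.4% and 73.0% in cKO, and without them the members summed to between 25.3 and 26.5 FPKM in the controls and between 30.8 and 33.2 FPKM in cKO. The marker sums also leaned on single genes: Cldn5, a tight junction gene, made up between 40.3% and 43.9% of the endothelial sum in 5 libraries and somewhat less in control replicate 1. Without it the ratio was 0.722, 0.703 and 0.722 in the controls and 0.637, 0.640 and 0.629 in cKO. Ptgds made up between 50.4% and 52.2% of the fibroblast sum in the controls and between 43.7% and 45.2% in cKO. Without it the fibroblast sums overlapped, at 234 to 244 FPKM in the controls and 223 to 239.8 FPKM in cKO, and the ratio was 0.351, 0.359 and 0.341 in the controls and 0.502, 0.513 and 0.512 in cKO. These ratios are descriptions and were not tested.

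The members' levels were also set against each other. Levels per gene length kept the order Vtn, Rgs5, Myl9, Pdgfrb and Anpep from the top in both groups, with no overlap between neighbours. Below them the controls followed with Cspg4, Abcc9 and Acta2, of which the last 2 overlapped, and cKO with Abcc9, Cspg4 and Acta2, of which the last 2 overlapped. Each member was then divided by Pdgfrb in the same library, a reference chosen after the values were seen. Rgs5 was 2.84, 2.86 and 2.67 times as high as Pdgfrb in the controls and 3.38, 3.31 and 3.51 times in cKO. The ratio of Myl9 went the other way, with at least 1.52 in each control and between 1.22 and 1.30 in cKO.

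For Rgs5, Acta2 and Abcc9 the 3 cKO ratios were all above the 3 control ratios, and for Myl9 and Anpep all below. For Vtn and Cspg4 the ratios overlapped, at a mean of 6.52 against 6.66 and of 0.348 against 0.336. An exact two-sided permutation test gave p = 0.1 for each of the 5 ratios without overlap, the smallest p that 3 against 3 libraries allow, and 0.14 after adjustment over the 7 ratios. No ratio was called by this test, which cannot give a smaller p with these libraries.

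**Figure D4:**
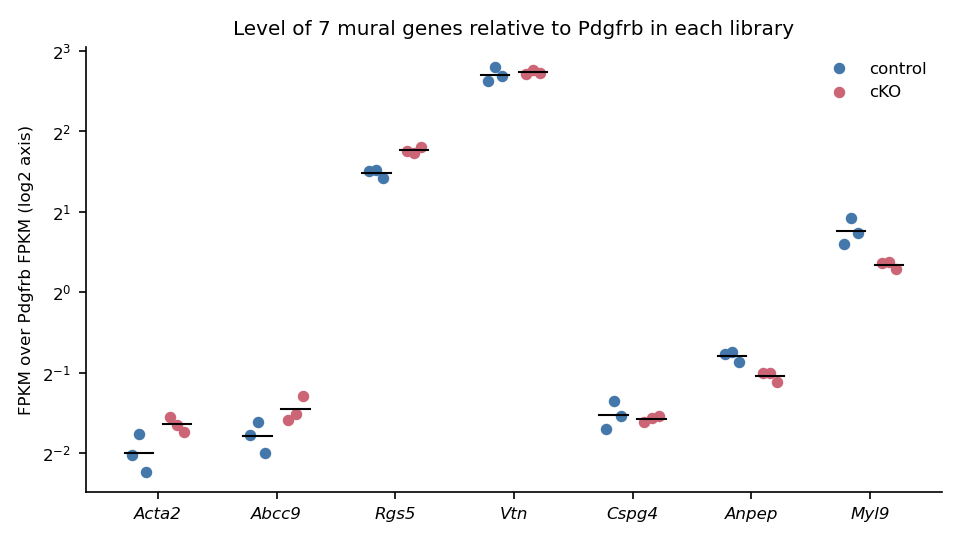
FPKM of 7 mural genes divided by the FPKM of Pdgfrb in each of 3 control and 3 cKO libraries (log2 axis); points are libraries in order of replicate number and lines group means. Acta2, Abcc9 and Rgs5 are higher against Pdgfrb in cKO, Vtn and Cspg4 overlap, and Anpep and Myl9 are lower.

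The authors' deposited table gave the same 6 members as higher at an adjusted p under 0.05, where 11.4% of the genes it tested were higher. Its log2 fold changes were 0.69 for Rgs5, 0.44 for Vtn, 0.40 for Pdgfrb, 0.78 for Acta2, 0.74 for Abcc9 and 0.36 for Cspg4. The authors' deposited table had Anpep at 0.16 (adjusted p of 0.283) and Myl9 at -0.001 (adjusted p of 0.996).

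Among the genes outside the set whose level over the 6 libraries was most like the mean standardised level of the 8 tested members were Smad3, Sesn2, Amotl1 and Slc41a1, with Pearson's r between 0.9957 and 0.9987. All 6 libraries share genotype with the level, so r mostly reflects the step between groups. Smad3, a mediator of TGF-beta signalling, rose from 12.8 to 15.6 FPKM, and Sesn2, a stress-induced sestrin gene, from 4.05 to 7.84 FPKM. Amotl1, an angiomotin family gene, averaged 6.25 and 7.70 FPKM, and Slc41a1, a magnesium transporter gene, 12.2 and 14.85 FPKM, and both were called higher.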

How the data were processed

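The authors deposited FPKM values per gene for 3 control and 3 cKO libraries at P3. Libraries were paired-end, dUTP-marked and made from poly(A) RNA, per the labels' protocols. The build mm10 and the tools StringTie 2.1.6, HISAT2 2.2.1, cutadapt 1.9, edgeR and DESeq2 are named without roles, per the submitters' processing notes. The columns not named WT were taken as cKO, the other P3 group of the labels. Positions are those of the table, and none of the 9 members had the GRCm38 start and end, so their build is not stated. Per the file headers, the table also holds the authors' mean signal, log2 fold change, standard error, test score, p-value and adjusted p-value.

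FPKM times gene length gave whole reads within 0.001 in all libraries. On log2(FPKM + 1), limma (version 3.58.1 in R 4.3.3) was run with a trend and no covariates over genes whose mean reached 1 FPKM. It was first tried on simulated data with fewer changed genes than were called here and the same fixed dispersion for every gene. That trial cannot vouch for the calls made here. Named genes are the members, up to 3 called genes with the smallest p of each list (or the most abundant) and the 5 genes of most similar level. Others were named after their values were seen, and not every gene the rule names is described. The members and lists were chosen with earlier results of these data known. Alternatives were another pseudocount, other filters and scalings, no trend, array weights, a replicate block, voom, protein-coding genes only and leaving out each library.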

Additional observations from a re-analysis of the deposited data

How the results depend on the processing

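The differences of Rgs5, Vtn, Pdgfrb, Acta2 and Abcc9 kept their direction and call in every alternative in which they were tested. The count of members called higher was 3 instead of 6 at a mean of at least 5 FPKM, where 4 members were tested, and between 5 and 6 when 1 library was left out. Anpep was called with array weights only. Myl9, not called in any alternative, had a difference of -0.033 after upper quartile scaling, and between -0.003 (without control replicate 1) and 0.10 when 1 library was left out. The count of all called genes was 2590, against 1271 with no filter and between 1193 (without cKO replicate 2) and 2170 (without cKO replicate 1) when 1 library was left out. It was 1334 without control replicate 2, 1491 without control replicate 3 and 1538 without cKO replicate 3. Larger counts came with array weights (3721), voom (3718), protein-coding genes only (3171), upper quartile scaling (3019) and TPM scaling (3000). With a replicate block 1542 genes and the same number of members, 6, were called. Same-numbered libraries did not deviate together (correlations of -0.02, 0.04 and -0.10), so the numbers were not read as pairs. The difference in the ratio of members to endothelial markers was -0.07, between -0.074 and -0.058 when 1 library was left out, -0.45 as a difference of median log2(FPKM + 1), and -0.081 without Cldn5, a setting chosen after seeing the data. For Tagln, Cnn1 and Pln, with at most 16 reads in any library, depth limited what could be detected.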

Other observations

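Genes that regulate the contractile programme, or respond with it in many cell types, changed in part. Of 13 tested genes of this list 6 rose and 1 fell, with a median of 0.03. Srf itself lay between 19.4 and 22.05 FPKM in the 6 libraries with an adjusted limma p of 0.88, and Myocd, the myocardin gene, was below 1 FPKM. The rises were Fhl2, a muscle-related LIM domain gene (3.08 to 4.27 FPKM, adjusted limma p of 0.0058), Yap1 and Wwtr1, which encode the coactivators YAP and TAZ (4.80 to 6.03 and 7.77 to 10.0 FPKM), their partner Tead1, Mrtfb, an SRF coactivator, and Vcl, the vinculin gene. Ccn1, a known target of YAP and SRF, fell from 6.86, 7.18 and 7.33 FPKM to 5.44, 5.73 and 5.39 FPKM (adjusted limma p of 0.0050). Ccn2, another such target, measured 2.05, 2.04 and 2.22 FPKM in the controls and averaged 1.53 FPKM in cKO, all below the controls, with an adjusted limma p of 0.052, and 0.026 after upper quartile scaling. After upper quartile scaling 6 genes of the list were higher and 3 lower, beside 1029 and 1990 of all 13538 tested genes.

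Among the relatives of Rgs5 in the R4 family of G protein regulators, 3 of 5 tested genes rose and none fell: Rgs2 (6.90 to 8.98 FPKM), Rgs3 (4.19 to 5.08 FPKM) and Rgs4 (2.40 to 3.51 FPKM). Over all tested genes 13.4% were called higher. The call of Rgs3 did not hold after upper quartile scaling (adjusted limma p of 0.079) or quantile normalization (0.11). Rgs4 is also among the other pericyte genes, so the 2 lists are not independent. Among paralogs of the contractile members, Tagln3, a neuronal transgelin gene, fell from 92.0 to 73.4 FPKM (adjusted limma p of 0.0068) and Myl6, a widely expressed myosin light chain gene, fell from 97.2 to 81.7 FPKM (adjusted limma p of 0.029, and 0.069 after quantile normalization). Of 2 abundant reference genes, Actb averaged 458 and 427 FPKM and was not called, and Gapdh fell from 285 to 221 FPKM, a direction and call that held under all 3 other scalings.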
